A study of Mus musculus with 6 samples.

Results

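The 10 circadian clock genes described here are Clock, Per1, Per2, Per3, Cry1, Cry2, Nr1d1, Nr1d2, Dbp and Tef. They were taken by symbol from the 41709 genes of the deposited expression table, and all 10 were found. All 10 also passed the filter of a mean TPM (transcripts per 1000000 transcripts) of 1 or more, which 11611 genes passed. RNA-seq was done on 6 tibialis anterior (TA) muscles of male C57BL/6J mice, a fast muscle of the lower leg. In 3 muscles (LrpprcWT, the control) a plasmid for wild-type mouse Lrpprc had been introduced by electroporation, and in the other 3 (LrpprcP27A) a plasmid for a variant with alanine in place of proline 27, which cannot be dihydroxylated there. Lrpprc is an RNA-binding protein that stabilises mitochondrial mRNAs, and the paper also describes it as a transcriptional coactivator. On the ground of this second role the study asked how loss of the modification changes the muscle transcriptome. All 6 muscles had thus been electroporated with a Flag-tagged Lrpprc driven by the CMV promoter, which is not specific to muscle fibres, and all kept their own Lrpprc gene. The muscles were collected 14 days later, and the groups were contralateral muscles of the same mice. The study used mice of 4 and of 27 months, and neither the age of the mice used for RNA-seq nor the time of day of collection is given in the sources used here.

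The mammalian clock is a loop of transcription and translation. Clock and its partner Bmal1 (symbol Arntl) bind E-box sequences and switch on the Per and Cry genes, whose proteins return to the nucleus and block Clock and Bmal1. In a second loop the nuclear receptors Nr1d1 and Nr1d2 (Rev-erb alpha and beta) repress Arntl, and the factors Dbp and Tef carry the rhythm to output genes through D-box sequences. Skeletal muscle has its own clock, which is set by feeding, activity and glucocorticoids, so the mRNA levels of most of these genes depend on the time at which a muscle is collected.

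Sequences that factors of this loop are known to bind were sought near the members, and the matches are printed to show the letters at these genes. The 300 bases before the start of each gene's canonical transcript (GENCODE annotation of GRCm39) were searched on both strands for 4 sequences. The E-box CACGTG was found in 3 of the 10 members and in 6.95% of 21757 promoters, the D-box TTANGTAA in 2 of 10 and 2.59%, the Nr1d1 and Nr1d2 binding sequence (RORE, TAGGTCA or TGGGTCA) in 1 of 10 and 6.43%, and the cAMP response element TGACGTCA in 0 of 10 and 1.75%. Each site below is printed from 5′ to 3′ on the strand of its gene, with the matched letters in capitals. An E-box lay 22 bases before the start of Per1, 29 before that of Cry1 and 138 before that of Tef (chr11:68989234-68989263 on the plus strand, chr10:85020961-85020990 on the minus strand and chr15:81695465-81695494 on the plus strand).
Per1: accccttaacgaCACGTGggccctcaattg
Cry1: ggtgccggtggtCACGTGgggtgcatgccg
Tef: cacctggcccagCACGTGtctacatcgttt
A D-box lay 125 bases before the start of Per2 (chr1:91387153-91387182, minus strand), and 2 lay 187 and 140 bases before that of Per3 (chr4:151129309-151129338 and chr4:151129262-151129291, minus strand).
Per2: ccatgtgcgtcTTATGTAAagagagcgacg
Per3, first site: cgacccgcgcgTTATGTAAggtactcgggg
Per3, second site: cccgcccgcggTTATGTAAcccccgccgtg
Dbp held 2 RORE sequences, 234 and 189 bases before its start (chr7:45354267-45354295 and chr7:45354312-45354340, plus strand).
Dbp, first site: ttggcccgaagTGGGTCAcggtcccgcct
Dbp, second site: ttggccaaataTAGGTCAgtgtcccgcct
Clock, Cry2, Nr1d1 and Nr1d2 had no match in this window. Exons annotated on either strand covered 112 of 112 bases around the sites of Dbp and 59 of 59 around that of Cry1. They covered 55 of 115 at Per3, 22 of 66 at Tef and 0 at Per1 and Per2. A match describes the letters only, and binding was not measured.

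TPM is a gene's share of all transcripts of a library after correction for transcript length. Each library sums to 1000000, so read depth and counting error are unknown, and a rise in abundant transcripts lowers the value of all others. Genes of the mitochondrial genome took 36.0% to 46.1% of the TPM. Fibre markers were abundant in every library, with 8 genes such as Ckm and Acta1 summing to between 112230 and 135232 TPM. Markers of some other cells moved with the group. Of 6 macrophage genes 5 were tested and all 5 were lower in LrpprcP27A (summed level 223 to 413 TPM in LrpprcWT and 75.7 to 140.0 TPM in LrpprcP27A), as were 5 of 5 fibroblast genes (811 to 1350 against 212 to 464 TPM), 1 of 5 endothelial genes and 2 of 3 satellite cell genes (limma, adjusted p under 0.05), where 23.3% of all tested genes were lower. The untested macrophage gene, Cd163, was under the filter and went the other way. It was at 0.315 to 0.581 TPM in LrpprcWT and 0.821 to 1.67 TPM in LrpprcP27A. On the median-of-ratios scale, which sets the typical gene to the same level in every library, 3 macrophage, 3 fibroblast, 0 endothelial and 1 satellite cell genes were lower. On that scale 700 of the 11611 tested genes were lower. No defining marker of these lists was at 0, and their part in the clock gene values was not tested. In whole muscle, fewer cells of a type cannot be told apart from less RNA per cell. Lrpprc itself, counted from the plasmid and the mouse gene together, was at 35.1, 37.0 and 75.2 TPM in LrpprcWT and 26.9, 29.7 and 26.0 TPM in LrpprcP27A (log2 fold change -0.72 ± 0.26 SE, limma adjusted p = 0.0652, and 0.00243 with the replicate block). On the median-of-ratios scale the value was -0.36 (limma adjusted p = 0.331 unpaired and 0.245 blocked). The TPM values of the groups did not overlap, and the highest value was that of LrpprcWT replicate 3.

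In the unpaired comparison no clock gene separated the groups. The test was limma on log2(TPM + 1), where fold changes of weakly expressed genes come out too small, with Benjamini-Hochberg adjustment over all 11611 genes. At an adjusted p under 0.05, 0 of the 10 members were lower in LrpprcP27A and 0 were higher, where 23.3% of all tested genes were lower and 1.34% were higher. At an unadjusted p under 0.05, 1 member (Nr1d2) was lower and 0 were higher, against 44.2% and 2.59% of all genes. The LrpprcWT and LrpprcP27A values overlapped for all 10 members, whereas they did not overlap for 51.1% of all genes. The Kruskal-Wallis test, which the study used, is under an unadjusted 0.05 at this group size only where the groups do not overlap. Its counts, 0 of the 10 members and 51.1% of all genes, therefore restate the overlap and add no further test. The median log2 fold change of the members was -0.25, and that of all genes was -0.32. The values of every member follow, grouped by role.

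**Figure D1:**
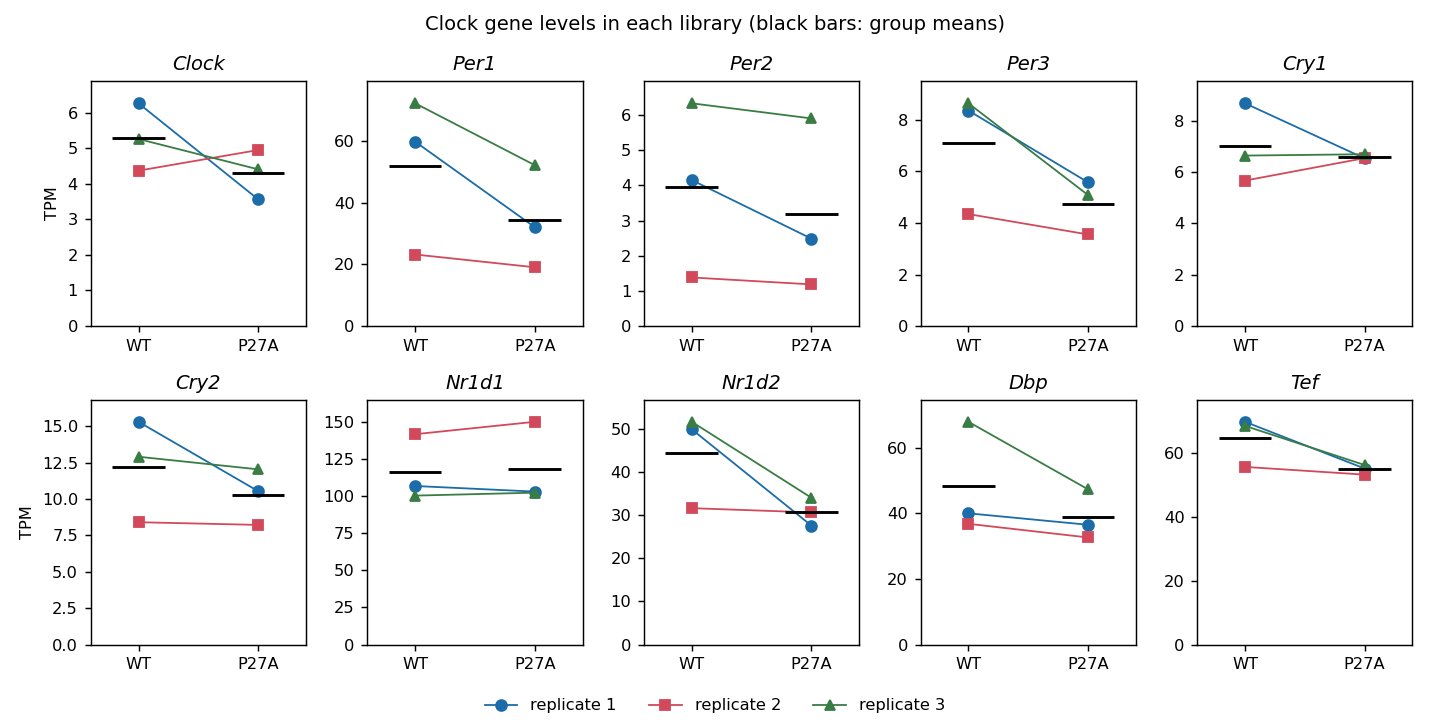
Level in TPM (vertical axis, from 0) of each of the 10 clock genes in the 3 LrpprcWT and 3 LrpprcP27A muscles. Colours and symbols give the replicate number, lines join contralateral libraries with the same number and black bars are group means. Replicate 2 is the lowest of both groups for Per1, Per2, Per3, Cry2, Dbp and Tef and the highest of both for Nr1d1.

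Clock encodes the activator of the loop. It was expressed at a low level, 6.26, 4.37 and 5.26 TPM in LrpprcWT replicates 1, 2 and 3 and 3.56, 4.95 and 4.40 TPM in LrpprcP27A replicates 1, 2 and 3. The groups overlapped, and Clock was lower with LrpprcP27A in replicates 1 and 3 and higher in replicate 2. Its log2 fold change was -0.24 ± 0.17 (SE, 95% confidence interval -0.62 to 0.14, limma adjusted p = 0.257).

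The 3 Per genes encode the repressors that are made and lost in each cycle, and Per1 and Per2 also respond to glucocorticoids and cAMP. Per1 was the most abundant of them, with 59.7, 23.2 and 72.1 TPM in LrpprcWT replicates 1, 2 and 3 and 32.0, 19.0 and 52.1 TPM in LrpprcP27A. Replicate 2 was the lowest and replicate 3 the highest of both groups, and the LrpprcP27A muscle was below its contralateral partner in all 3 pairs. The log2 fold change of Per1 was -0.54 ± 0.44 (SE, 95% confidence interval -1.54 to 0.47, limma adjusted p = 0.339).

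Per2 had the same order of mice within each group as Per1, at a much lower level. It was at 4.15, 1.38 and 6.33 TPM in LrpprcWT and 2.49, 1.18 and 5.91 TPM in LrpprcP27A, and its log2 fold change was -0.26 ± 0.48 (SE, limma adjusted p = 0.667). The spread between muscles of the same group was far wider than the difference between the group means. Per3 was at 8.37, 4.35 and 8.65 TPM in LrpprcWT and 5.58, 3.55 and 5.09 TPM in LrpprcP27A. Again replicate 2 was the lowest of both groups, and each LrpprcP27A muscle was below its partner (log2 fold change -0.47 ± 0.25 SE, limma adjusted p = 0.16).

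The cryptochromes Cry1 and Cry2 are the partners of the Per proteins and the stronger repressors of Clock and Bmal1. Cry1 was at 8.69, 5.67 and 6.65 TPM in LrpprcWT and 6.54, 6.55 and 6.70 TPM in LrpprcP27A. The LrpprcP27A values lay within the LrpprcWT range and close to each other (SD 0.0905 TPM, n = 3, against 1.54 TPM), and the log2 fold change was -0.058 ± 0.16 (SE, limma adjusted p = 0.774). Cry2 was at 15.3, 8.40 and 12.9 TPM in LrpprcWT and 10.5, 8.22 and 12.0 TPM in LrpprcP27A. Its replicate 2 muscles were the lowest of both groups, and the log2 fold change was -0.21 ± 0.22 (SE, limma adjusted p = 0.449).

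Nr1d1 and Nr1d2 encode the repressors of Arntl, and Nr1d1 was the most abundant of the 10 members. It was at 107, 142 and 100 TPM in LrpprcWT and 103, 150 and 102 TPM in LrpprcP27A. Here replicate 2 was the highest of both groups, opposite to the Per genes, and contralateral muscles differed little (log2 fold change 0.020 ± 0.18 SE, 95% confidence interval -0.40 to 0.44, limma adjusted p = 0.933). Nr1d1 shares 1694 of its 3242 exonic bases (52.3%) with Thra on the opposite strand, and the kit did not mark strand, so reads of the shared part cannot be told apart. Thra, a thyroid hormone receptor, was at 43.9, 35.6 and 33.6 TPM in LrpprcWT and 34.1, 29.4 and 26.8 TPM in LrpprcP27A, with replicate 1 and not replicate 2 the highest.

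Nr1d2 was the member nearest to a group difference. It was at 50.01, 31.7 and 51.8 TPM in LrpprcWT and 27.6, 30.7 and 34.1 TPM in LrpprcP27A. The groups overlapped through LrpprcWT replicate 2 alone, which lay below the highest LrpprcP27A value. The log2 fold change was -0.49 ± 0.19 (SE, 95% confidence interval -0.92 to -0.060), with a limma p of 0.0298 that became 0.0789 after adjustment.

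Dbp and Tef are PAR bZIP activators that bind D-boxes, and Dbp is a direct and strongly rhythmic target of Clock. Dbp was at 40.0, 36.8 and 68.0 TPM in LrpprcWT and 36.5, 32.7 and 47.4 TPM in LrpprcP27A. Replicate 3 was the highest and replicate 2 the lowest of both groups, and the log2 fold change was -0.27 ± 0.23 (SE, limma adjusted p = 0.358). Dbp shares 15.5% of its exonic bases with Sphk2 on the opposite strand, which was at 5.43 to 8.19 TPM. Tef, whose mRNA is less rhythmic, was at 69.8, 55.6 and 68.5 TPM in LrpprcWT and 55.1, 53.2 and 56.2 TPM in LrpprcP27A. The LrpprcP27A values of Tef spanned a narrow range that only LrpprcWT replicate 2 entered (log2 fold change -0.23 ± 0.12 SE, limma adjusted p = 0.155).

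Contralateral muscles were then compared within the mouse. Same-numbered libraries deviated together from their group means, and the second fit therefore took the replicate number as its block. With the replicate block 3 of the 10 members were lower in LrpprcP27A and 0 were higher, where 48.4% of all genes were lower and 2.69% were higher, so the members' share was below that of all genes. Per1 fell by 0.54 ± 0.13 (SE) on the log2 scale (limma adjusted p = 0.00304), with differences of -0.88, -0.27 and -0.46 in the 3 pairs. Per3 fell by 0.47 ± 0.14 (limma adjusted p = 0.00874), with pair differences of -0.51, -0.23 and -0.66. Nr1d2 fell by 0.49 ± 0.14 (limma adjusted p = 0.00863), with pair differences of -0.83, -0.044 and -0.59, so that replicate 2 showed almost no difference. Dbp (0.0778), Tef (0.121), Per2 (0.136), Clock (0.178), Cry2 (0.196), Cry1 (0.73) and Nr1d1 (0.892) did not pass with the block, the limma adjusted p being given for each. Lower values in 3 of 3 pairs were found for 7 of the 10 members, against 70.1% of all genes. These calls rest on few muscles. Without both libraries of replicate 1 the block called 0 members lower, without replicate 2 it called 4 and without replicate 3 it called 2, and without LrpprcWT replicate 2 the unpaired fit called 4 (Per1, Per3, Nr1d2 and Tef). The share of all genes called in these fits is not given here, so the counts are not set against a background.

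The direction of the group difference depends on how libraries are scaled. Median-of-ratios scaling moved the median log2 fold change of all genes by 0.31, to -0.0047, and that of the members to 0.082. On the deposited scale 9 of the 10 members had a negative log2 fold change, against 10217 of the 11611 genes, and on the median-of-ratios scale 3 did (Per1, Per3 and Nr1d2), against 5897. With the block on this scale 0 members were lower and 1 was higher, against 15.8% and 13.4% of all genes. The member that was higher was Nr1d1, by 0.39 ± 0.076 on the log2 scale (SE, limma adjusted p = 0.0187), with differences of 0.40, 0.28 and 0.50 in the 3 pairs. Per1, Per3 and Nr1d2 did not pass on this scale (log2 fold changes -0.17, -0.15 and -0.12, limma adjusted p = 0.257, 0.2 and 0.447).

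**Figure D2:**
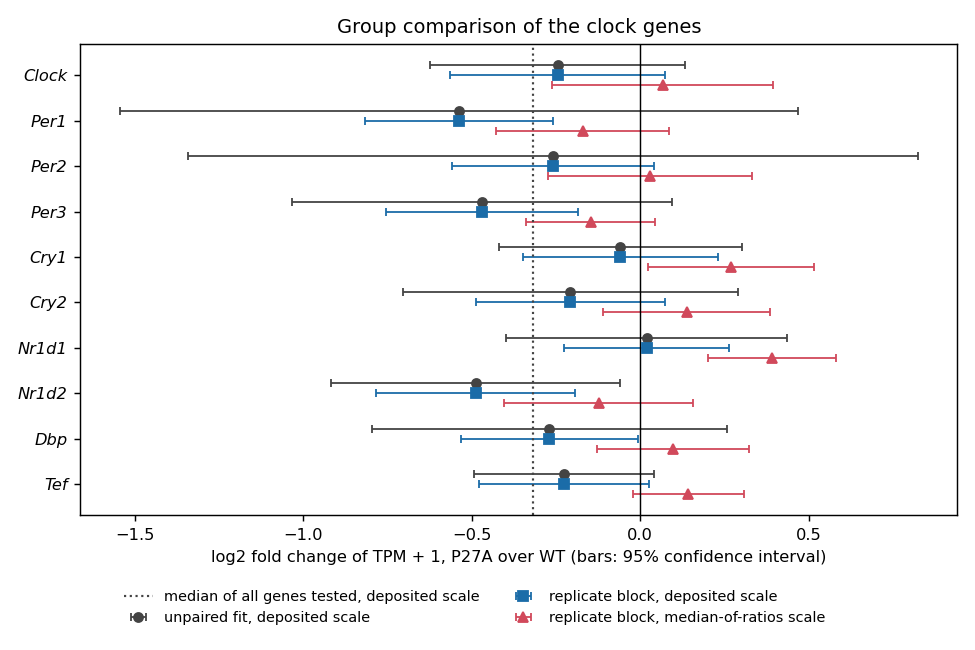
Log2 fold change of TPM + 1, LrpprcP27A over LrpprcWT (horizontal axis), of each clock gene in the unpaired fit, with the replicate block, and with this block on the median-of-ratios scale. Bars are 95% confidence intervals and the dotted line is the median of all 11611 genes on the deposited scale (-0.32). The block narrows the interval of Per1, and median-of-ratios scaling moves every gene to the right.

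On the deposited scale the clock genes other than Clock, Nr1d2 and Tef had a larger share of their variation between mice than between groups. The sum of squares of each gene's 6 log2 values was divided into a part between groups, a part between the 3 replicate numbers and a remainder. The part between numbers has more degrees of freedom than that between groups, which by itself favours a larger share. The median share between numbers was 67.8% for the members and 25.7% for all genes, and the median share between groups was 15.3% and 56.7%. On the median-of-ratios scale the shares between numbers were 71.2% and 31.0%. By member the share between numbers was 98.5% for Nr1d1, 94.1% for Per2, 81.7% for Per1, 77.9% for Dbp, 75.5% for Cry2, 60.1% for Per3, 47.1% for Cry1, 32.2% for Tef, 25.4% for Nr1d2 and 0.687% for Clock. The remainder was the largest part for Cry1 (49.6%) and Clock (64.7%). The shares between numbers depend on the scaling. On the median-of-ratios scale they were 73.5% for Nr1d1, 20.8% for Clock, 31.9% for Nr1d2, 15.5% for Cry1 and 3.13% for Tef, and between 68.9% and 96.7% for Per1, Per2, Per3, Cry2 and Dbp. There Cry1 (60.9%) and Tef (91.4%) were the members with the larger share between groups.

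**Figure D3:**
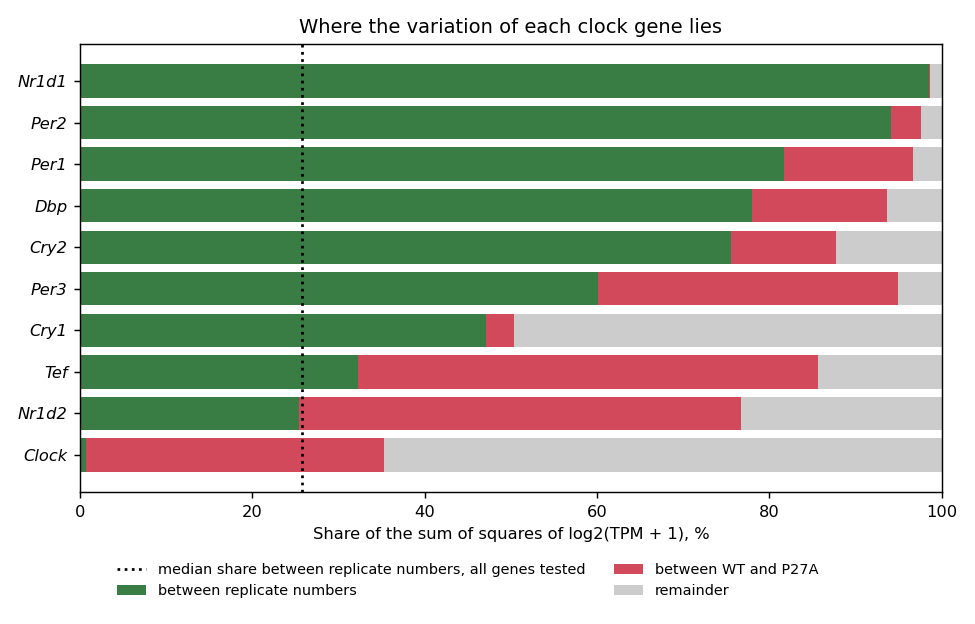
Share in % (horizontal axis) of each clock gene's sum of squares of log2(TPM + 1), on the deposited scale, that lay between replicate numbers, between the LrpprcWT and LrpprcP27A groups, and in the remainder. The dotted line is the median share between numbers of all genes tested (25.7%), and the bars of Nr1d1 and Per2 are the longest between numbers.

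A limma F-test of the replicate number beside the group, chosen after the values had been seen, was under an adjusted p of 0.05 for 6 of the 10 members and for 9.62% of all genes. These were Per1 (3.36e-05), Per2 (3.43e-05), Dbp (0.0118), Per3 (0.0173), Nr1d1 (0.0364) and Cry2 (0.0459). The ratio of the highest to the lowest replicate mean was 4.78 for Per2, 2.92 for Per1, 1.74 for Per3, 1.64 for Dbp, 1.53 for Cry2 and 1.44 for Nr1d1. For Nr1d2 (0.281), Cry1 (0.564), Tef (0.62) and Clock (0.986) the limma adjusted p did not pass, and the ratio of means ran from 1.04 for Clock to 1.35 for Nr1d2. After median-of-ratios scaling 0 members and 0 of all genes passed the adjusted threshold, and 6 members were under an unadjusted p of 0.05, against 19.9% of all genes. The deposited-scale count also rests on replicate 2, being 0 without LrpprcWT replicate 2 and 2 without LrpprcP27A replicate 2. The order of the 3 mice was the same in both groups for 4 members (Per1, Per2, Nr1d1 and Dbp), against 30.3% of all genes. The mouse, its time of collection and any other feature of a replicate number cannot be told apart.

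The relation of Nr1d1 to Per1 and Per2 differed widely between mice. On the linear scale Nr1d1 was 25.8, 103 and 15.9 times Per2 in LrpprcWT replicates 1, 2 and 3 and 41.5, 127 and 17.4 times Per2 in LrpprcP27A. Against Per1 it was 1.79, 6.13 and 1.39 times in LrpprcWT and 3.22, 7.90 and 1.97 times in LrpprcP27A. These ratios do not depend on how a library is scaled, and in both groups replicate 2 was the highest and replicate 3 the lowest. They were chosen after the values had been seen and were given no test. Per3 was not set against Nr1d1 in this way, and its highest LrpprcP27A value was in replicate 1, not replicate 3.

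Ratios between paralogs and between arms of the loop were compared between groups by a two-sided exact permutation test on differences of log2(TPM + 1), for which 3 against 3 allow no p below 0.1, with adjustment over 5 ratios. Per1 relative to Per2 was 3.56, 3.34 and 3.32 in LrpprcWT and 3.24, 3.20 and 2.94 in LrpprcP27A, without overlap (difference -0.28, exact p = 0.1, adjusted 0.5). Without a pseudocount this separation was absent, since Per1 was 14.4, 16.8 and 11.4 times Per2 in LrpprcWT and 12.9, 16.1 and 8.82 times in LrpprcP27A. The differences were 0.51 for Nr1d1 to Nr1d2 (exact p = 0.3), 0.15 for Cry1 to Cry2 (exact p = 0.6), -0.044 for Dbp to Tef (exact p = 0.9) and -0.025 for Dbp to Clock (exact p = 1). Within mice the difference was of the same sign in all 3 pairs for Nr1d1 to Nr1d2 (0.78, 0.13 and 0.62), Cry1 to Cry2 (0.14, 0.21 and 0.10) and Per1 to Per2 (-0.32, -0.15 and -0.37), for each of which the paired exact p was 0.25, the smallest that 3 pairs allow. For Dbp to Tef it was 0.75 and for Dbp to Clock 1 (exact, paired).

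Of 10 other transcription factors of the clock, 7 were tested and 2 passed the group comparison, 1 higher and 1 lower (1 and 2 with the replicate block), where 1.34% of all genes were higher and 23.3% lower (2.69% and 48.4% with the block). Hlf, the third PAR bZIP factor beside Dbp and Tef, was low, at 1.29, 1.49 and 1.04 TPM in LrpprcWT and 2.19, 2.78 and 4.01 TPM in LrpprcP27A, and was higher in all 3 LrpprcP27A muscles (0.79 ± 0.19 SE, limma adjusted p = 0.0262). Hlf no longer passed when LrpprcWT replicate 1 or 3 or LrpprcP27A replicate 2 or 3 was left out (limma adjusted p between 0.0685 and 0.118), and it passed after median-of-ratios scaling (limma adjusted p = 0.0317). Bhlhe40, an E-box repressor, was at 79.6, 73.6 and 86.0 TPM in LrpprcWT and 64.4, 60.6 and 48.2 TPM in LrpprcP27A (-0.47 ± 0.13, limma adjusted p = 0.039), and did not pass after median-of-ratios scaling (limma adjusted p = 0.633) or without any of LrpprcWT replicate 1 or 3 and LrpprcP27A replicate 2 or 3 (limma adjusted p between 0.099 and 0.136).

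Arntl, which encodes Bmal1, did not pass, with 4.12, 5.51 and 3.62 TPM in LrpprcWT and 4.004, 5.95 and 4.27 TPM in LrpprcP27A (log2 fold change 0.083 ± 0.19 SE, limma adjusted p = 0.725). Like Nr1d1 it was highest in replicate 2 of both groups. Nfil3, a repressor at D-boxes, was at 30.6, 18.7 and 56.5 TPM in LrpprcWT and 15.6, 16.1 and 40.6 TPM in LrpprcP27A, and Ciart, a repressor of Clock and Bmal1, at 3.73, 2.61 and 8.44 TPM against 4.20, 2.75 and 11.4 TPM. Both were highest in replicate 3 of both groups and varied with the replicate number (limma adjusted p of the F-test 8.04e-05 and 2.34e-05) without passing the unpaired comparison of groups (limma adjusted p = 0.331 and 0.741). With the replicate block Nfil3 was lower in LrpprcP27A, by -0.93, -0.20 and -0.47 on the log2 scale in the 3 pairs (limma adjusted p = 0.00436), and it did not pass in the blocked fit on the median-of-ratios scale (limma adjusted p = 0.307). Rora (6.25 to 12.5 TPM) and Bhlhe41 (15.8 to 22.7 TPM) did not pass, and Npas2, an alternative partner of Bmal1, lay between 0.297 and 1.48 TPM and under the filter.

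**Figure D4:**
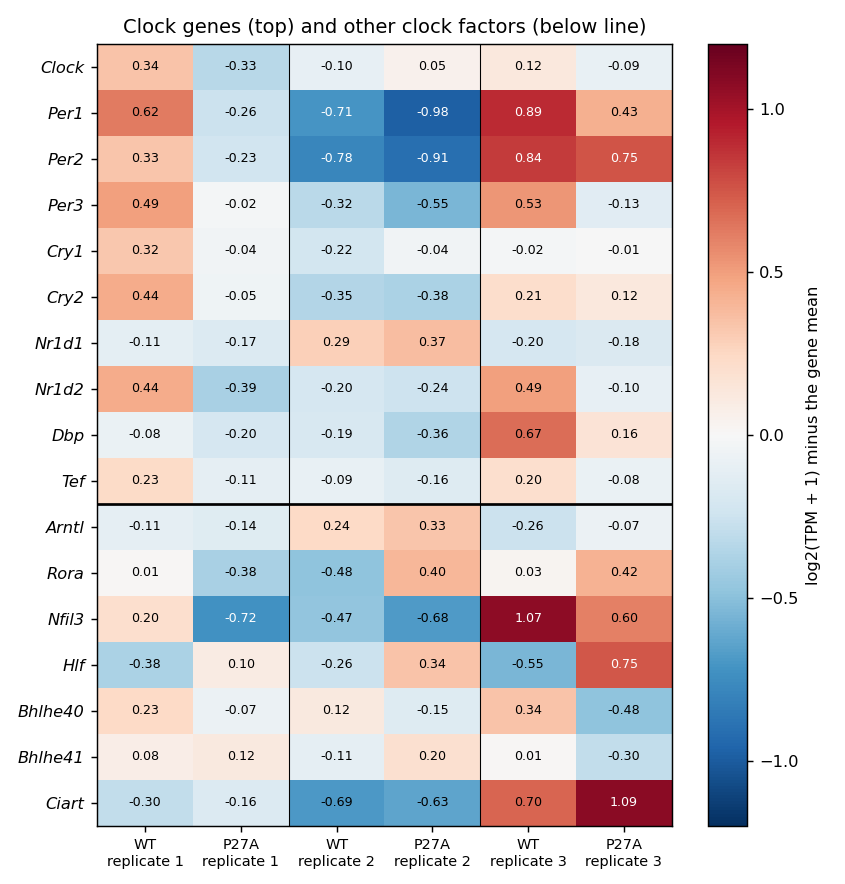
Log2(TPM + 1) minus the gene's mean over the 6 libraries (colour and printed value) for the 10 clock genes, above the black line, and the 7 other clock transcription factors tested, below it. Columns are libraries ordered by replicate number, so that contralateral muscles stand side by side. Per1 and Per2 are below their mean and Nr1d1 and Arntl above it in both replicate 2 muscles, whereas Hlf differs between the columns of each pair.

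Among 19 kinases, ubiquitin ligases and cofactors that act on clock proteins, 18 were tested, 3 were lower in LrpprcP27A and 0 were higher, and with the replicate block 5 were lower, against 23.3% and 48.4% of all genes. The 3 were the ubiquitin ligase subunit Fbxw7 (log2 fold change -0.58), the RNA-binding protein Nono (-0.62) and Tipin (-0.42), with limma adjusted p of 0.0308, 0.0312 and 0.0468, and none of them passed after median-of-ratios scaling (limma adjusted p = 0.222, 0.0999 and 0.651). The count was 11 without LrpprcWT replicate 2, 1 without LrpprcP27A replicate 1 and 0 without any of the other 4 libraries. The share of all genes called in these fits is not given here, so these counts have no background. The casein kinases Csnk1d and Csnk1e, which phosphorylate Per proteins, did not pass (log2 fold change -0.14 and -0.29). Usp2, a deubiquitinase with a rhythmic mRNA, was at 87.8, 52.9 and 140 TPM in LrpprcWT and 61.0, 50.8 and 112 TPM in LrpprcP27A, with the same order of mice as Per1 and Per2 (limma adjusted p of the F-test 0.000127).

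Of 10 genes described as clock outputs in muscle, 1 was lower in LrpprcP27A and 0 were higher, and with the replicate block 5 were lower, against the same 23.3% and 48.4% of all genes. The 1 gene of the unpaired fit was the cell cycle inhibitor Cdkn1a, at 45.7, 33.1 and 50.8 TPM in LrpprcWT and 10.5, 8.29 and 15.4 TPM in LrpprcP27A (log2 fold change -1.85 ± 0.23 SE, limma adjusted p = 0.0089, and 0.0203 after median-of-ratios scaling). Without LrpprcWT replicate 3 the limma adjusted p was 0.0768, and 2 and 5 genes of the list were lower without LrpprcWT replicate 1 and without LrpprcWT replicate 2. For these 2 fits, too, the share of all genes is not given. In this list 7 of 10 genes varied with the replicate number, against 9.62% of all genes. Pdk4, the kinase that limits glucose oxidation, was at 223, 426 and 714 TPM in LrpprcWT and 120, 452 and 851 TPM in LrpprcP27A, an order of mice in which replicate 2 was not the lowest, unlike Per1 and Per2. Of 5 genes of the glucocorticoid receptor and its targets 0 passed between groups (1 was lower with the replicate block) and 3 varied with the replicate number, among them Tsc22d3 (65.9, 44.8 and 85.1 TPM in LrpprcWT and 52.9, 52.0 and 90.2 TPM in LrpprcP27A, limma adjusted p of the F-test 0.0044). Fkbp5 and Zbtb16 also varied with it (limma adjusted p of the F-test 0.000868 and 0.00169). Both were lowest in replicate 1 of both groups, unlike Tsc22d3, Per1 and Per2.

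The 5 genes nearest to Clock, Per1 and Dbp were sought among all tested genes by the root mean square difference of centred log2(TPM + 1) over the 6 libraries. For Clock they were Rc3h2 (0.0235), Tmf1 (0.0347), Mtdh (0.0411), Rpe (0.0418) and Arl5a (0.0491). For Per1 they were Synj2 (0.0633), Spsb1 (0.148), Gfpt2 (0.156), Fgfr3 (0.162) and Ednrb (0.166), and Per2 stood at rank 8 (0.184). For Dbp they were Mad2l1bp (0.0675), Cldn15 (0.0717), Rrs1 (0.085), Psmg3 (0.0869) and Cryab (0.0938). Other members and clock transcription factors were far from Clock and Dbp. The nearest of them to Clock was Tef, at rank 1029 (0.137). The nearest to Dbp was Nr1d2, at rank 2832 (0.264). The nearest gene to Nr1d1, looked up after its values were seen, was Arntl (0.0568). Such distances describe 6 libraries that share mice and groups.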

How the data were processed

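Total RNA of 6 TA muscles, 3 for each group, was sequenced as 100 bp reads from a kit that does not mark strand. The authors aligned the reads to the GRCm39 genome in CLC Genomics Workbench. The deposited values are TPM, which keep no depth per sample. Genes under a mean TPM of 1 were left out, and log2(TPM + 1) was fitted with limma 3.58.1 (R 4.3.3), with trend and without block, with Benjamini-Hochberg adjustment over 11611 genes. The fit was tested on simulated data. Ratios were compared with exact permutation tests in scipy 1.17.1. The labels number 3 muscles per group as replicates. The pairing rests on library numbers that both groups share and on the statement that the muscles were contralateral. The check was the correlation of deviations from the group means over all tested genes, which was 0.36 for number 1, 0.53 for number 2 and 0.36 for number 3. Named genes are the 10 members, Lrpprc, the genes of the lists that passed, 11 further clock genes of fixed name, and the 5 nearest genes of Clock, Per1 and Dbp. Csnk1d, Csnk1e, Sphk2, Pdk4, Fkbp5, Zbtb16, Cd163 and the nearest gene of Nr1d1 were chosen after their values were seen. A further gene of the lists is not reported here. The members and lists were chosen with earlier results of these data known. Alternatives were a pseudocount of 0.1, other filters (none, or a mean TPM from 5), limma without trend, a model without moderation, the Kruskal-Wallis test, the replicate block, 3 other scalings and each library left out. Positions, sequences and overlaps of annotated exons are from GENCODE and GRCm39.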

Additional observations from a re-analysis of the deposited data

How the results depend on the processing

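With 3 muscles per group and no depth, counting error cannot be stated. Without the replicate block 0 members were lower and with it 3, against 23.3% and 48.4% of all genes. With each library left out 0 to 4 members were lower, the 4 without LrpprcWT replicate 2. In the paired fit without both libraries of a number, chosen after seeing the data, the count was 0, 4 and 2 without replicate 1, 2 and 3. No share of all genes is given for any fit with a library or number left out. With the replicate block and median-of-ratios scaling 1 member was higher, against 13.4% of all genes. The members' median log2 fold change was 0.082 with median-of-ratios scaling, with or without the block, and 0.080 with quantile normalization. With median-of-ratios scaling Clock came to 0.067, Per2 to 0.030, Cry1 to 0.27, Cry2 to 0.14, Dbp to 0.097 and Tef to 0.14, and with quantile normalization to 0.15, 0.14, 0.33, 0.13, 0.0048 and 0.025. Cry1 was at 0.042 after rescaling without the mitochondrial genome. With each library left out Cry1 ran from -0.18 to 0.088, Per2 from -0.71 to 0.13 and Nr1d1 from -0.16 to 0.17, and in the paired fit without a number Cry1 ran from -0.18 to 0.094 and Nr1d1 from -0.012 to 0.055.

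The counts of this paragraph were recomputed under alternatives chosen after seeing the data. Of all genes, 13.4% were higher and 15.8% lower with the replicate block and median-of-ratios scaling. With the replicate block alone 2.69% were higher and 48.4% lower. With median-of-ratios scaling alone 610 of the 11611 genes were higher, 700 were lower and 0 varied with the replicate number. For the other alternatives no share of all genes is given here. The count of members that varied with the replicate number, 6, was 0 with median-of-ratios scaling, 1 with quantile normalization, 2 after rescaling without the mitochondrial genome and 0 without the filter, and ran from 0 to 5 with a library left out. The 1 transcription factor that was higher became 4 with the replicate block and median-of-ratios scaling, 0 from a mean TPM of 5 and 0 without the filter, and 0 to 1 with a library left out and 1 to 2 in the paired fit without a number. The 1 that was lower became 2 with the replicate block and 0 with each other scaling, without trend and without the filter, with 0 to 1 and 1 to 2 in those fits. The 3 kinases, ligases and cofactors that were lower became 5 with the replicate block, 1 with it and median-of-ratios scaling, 1 after rescaling, and 0 with median-of-ratios or quantile scaling and without the filter, with 0 to 11 and 1 to 10 when libraries or numbers were left out. Of that list 1 gene was higher with the replicate block and median-of-ratios scaling. The 1 output gene that was lower became 5 with the replicate block and 0 without the filter, with 0 to 5 and 5 to 6 when libraries or numbers were left out, and 2 were higher with the replicate block and median-of-ratios scaling. Of the glucocorticoid genes 1 was lower with the replicate block, 4 were higher with it and median-of-ratios scaling, and 0 to 1 were lower with a library or number left out. A model without moderation called 0 genes in every list, and so did the Kruskal-Wallis test, whose adjusted p cannot go below 0.0969 with 3 against 3 here. In the model without moderation the adjusted p was the same 0.128 for Hlf, Fbxw7, Tipin and Cdkn1a. Without the filter the limma adjusted p was the same 0.218 for Tipin and Cdkn1a. The counts of 0 in these fits therefore do not tell strongly and weakly changed genes apart. Dbp relative to Clock was 0.016 with a pseudocount of 0.1 and ran from -0.24 to 0.24 with a library left out, and Dbp relative to Tef from -0.21 to 0.18. For these changes the cause was not tested.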
